A study of Homo sapiens with 3 samples.

Results

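The human tetraspanin family was followed through a knockdown of NONO, an RNA- and DNA-binding protein, in UM-UC-3, an established bladder cancer line. The family was taken as 33 named genes. Members were chosen by name, and by measured values in so far as a gene had to be listed in all 3 libraries and was tested only at 1 CPM or more. CPM is a gene's reads as a share of the library, scaled so that all genes of a library sum to the same total. Of the 33 genes, 24 were listed in all 3 libraries, and 20 reached 1 CPM in at least 1 of them, out of 21308 and 13922 genes in all. Lipofectamine RNAimax carried a negative control siRNA or 1 of 2 NONO siRNAs of different sequence into the cells, at 75 nM and for 48 h, and each siRNA gave 1 library. The comparison is therefore 1 control library against 2 knockdown libraries, and the labels do not say whether these came from separate cultures. NONO gave 823 CPM after the control siRNA, 79.5 CPM after siRNA 1 and 104 CPM after siRNA 2 (limma adjusted p = 0.00698). Where 3 values follow each other they are in that order.

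Tetraspanins are small proteins that cross the membrane repeatedly and carry a large outer loop with conserved cysteines. They gather integrins, immunoglobulin-family proteins, proteases and growth factor receptors into membrane domains, and several of them sort cargo into endosomes and exosomes. CD82, also known as KAI1, restrains cell movement and is known as a metastasis suppressor. UPK1A and UPK1B, the tetraspanin uroplakins, form the plaques of the bladder's umbrella cells.

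CD82 is the member on which the results turn, so its promoter is shown. It covers the 250 bases before and 50 bases after the RefSeq start, GRCh38.p14 chromosome 11, 44565413 to 44565712, plus strand. Capitals mark 4 GC boxes (GGGCGG) and 1 match to an AP-2 motif (GCCNNNGGC), searched on both strands, and the matches do not overlap.
CD82 promoter: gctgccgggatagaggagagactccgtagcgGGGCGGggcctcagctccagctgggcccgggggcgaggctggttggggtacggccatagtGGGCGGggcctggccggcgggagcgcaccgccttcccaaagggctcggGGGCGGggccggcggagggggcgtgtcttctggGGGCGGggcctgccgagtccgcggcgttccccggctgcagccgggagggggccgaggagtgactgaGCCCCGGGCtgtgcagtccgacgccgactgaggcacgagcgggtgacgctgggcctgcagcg
GC boxes were searched after the sequence had been read. Of 14881 RefSeq promoters of the same length, from 10200 of the genes tested, 66.1% hold a GC box and 30.8% the AP-2 motif. The AP-1 motif TGANTCA (5.33% of these promoters) and the NF-kB motif (13.3%) were also searched and do not occur in these 300 bases. The GENCODE start of the CD82 gene, 44564427, lies before this window, and the bases around it were not searched. Of the 20 tetraspanins tested, 14 have a promoter in the table.

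The guide strands of the siRNAs are shown because their seeds, bases 2 to 8 in capitals, can also pair with other mRNAs. They are the reverse complement of the sequences in the labels, of which both NONO sequences match NONO and ENSG00000260290 transcripts and the control sequence matches no annotated transcript in either orientation.
Control siRNA guide: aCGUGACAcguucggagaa
NONO siRNA 1 guide: uAUGAAUGaagacuucgcc
NONO siRNA 2 guide: uUCGAACUguaagggaugc
The label of the control siRNA does not name a strand, and its sequence was read as the sense strand like the others.

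CD82 (ENSG00000085117, GRCh38 chromosome 11, 44564427 to 44620363, plus strand) was far lower in both knockdown libraries. Its reads numbered 2957 after the control siRNA, 370 after siRNA 1 and 605 after siRNA 2. These are 107 CPM (95% Poisson interval 103 to 111), 12.6 CPM (11.3 to 13.9) and 21.2 CPM (19.5 to 22.9), or 11.8% and 19.8% of the control. The intervals cover counting error only, and neither knockdown interval reaches that of the control. For CD82 and every other member, the share of all genes with intervals apart from the control was not counted. Intervals that lie apart thus do not set a member off from other genes. On the scale of log2(CPM + 1) it differed from the control by -2.99 and -2.28, a mean of -2.64 (SE 0.33). Over all 13922 genes tested, 5 had a lower mean log2 fold. CD82 fell in the limma fit over all genes (adjusted p = 0.0324) and was the only tetraspanin called, where 0.079% of all genes were called lower and 0.136% higher. The family was taken up with the fall of CD82 known, so this value describes CD82 and is no independent support. In edgeR on the recovered reads CD82 was again the only member called (adjusted p = 0.000707), where 0.413% of the genes were called lower.

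The call of CD82 depended on the settings of limma, while its size hardly moved. The limma adjusted p was 0.0751 with TMM scaling, 0.0705 without a trend, 0.0687 with a mean of at least 5 CPM and 0.566 with no filter on low values. With 1 control library, the p-values rest on the spread between 2 different siRNAs and assume that the control varies alike. In bulk RNA, fewer cells that make a gene and less RNA per cell cannot be told apart.

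**Figure D1:**
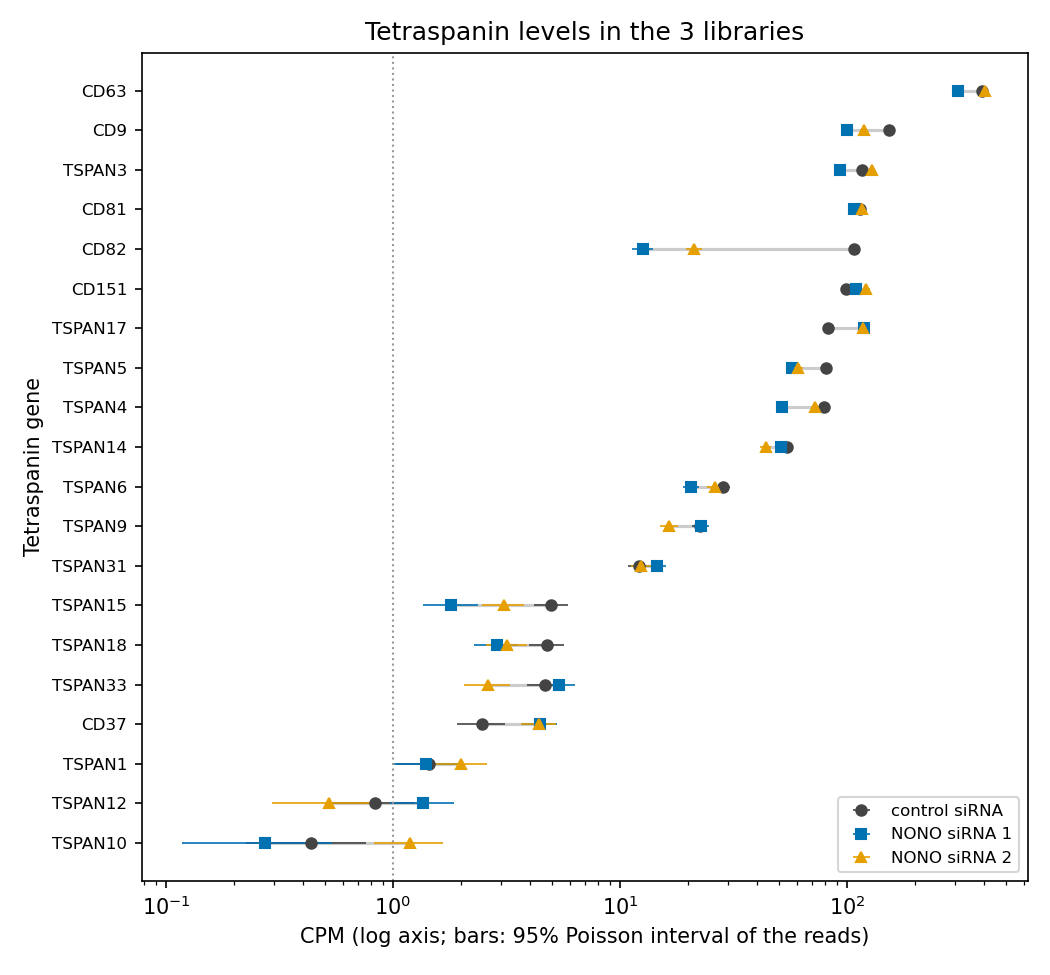
CPM of the 20 tetraspanins tested in the control, NONO siRNA 1 and NONO siRNA 2 libraries on a log axis, with 95% Poisson intervals of the reads. CD82 moves from 107 to 12.6 and 21.2 CPM, away from the other genes above 10 CPM in the control, which lie within 2-fold of the control with either siRNA.

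Per length, CD82 went from one of the main tetraspanins of these cells to the middle of their order. On the scale of CPM per kilobase of exons, which allows levels of different genes to be compared, its level was 26.3 after the control siRNA and 3.10 and 5.22 after the NONO siRNAs. It ranked 3 of the 20 tetraspanins in the control library and 11 and 10 in the knockdown libraries. The knockdown ranks are approximate, since its interval overlaps those of TSPAN9 and TSPAN14 after siRNA 1 and that of TSPAN6 after siRNA 2. The share of CD82 in the summed level per kilobase of these 20 genes was 8.03%, 1.22% and 1.68%. With the longest transcript in place of all exons it ranked 4 in the control library and 9 in both others.

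CD63, a tetraspanin of late endosomes and exosomes, was the most abundant member in all 3 libraries. Its levels per kilobase were 149, 117 and 155, which is 45.6%, 45.8% and 49.7% of the family's sum. CD9 and CD151 were the next highest besides CD82. In the control library the intervals of CD82 and CD151 overlap in this order, as do those of TSPAN17 and CD81 and those of TSPAN3 and TSPAN4. The summed CPM of the 19 tetraspanins other than CD82 was 1256, 1071 and 1258.

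**Figure D2:**
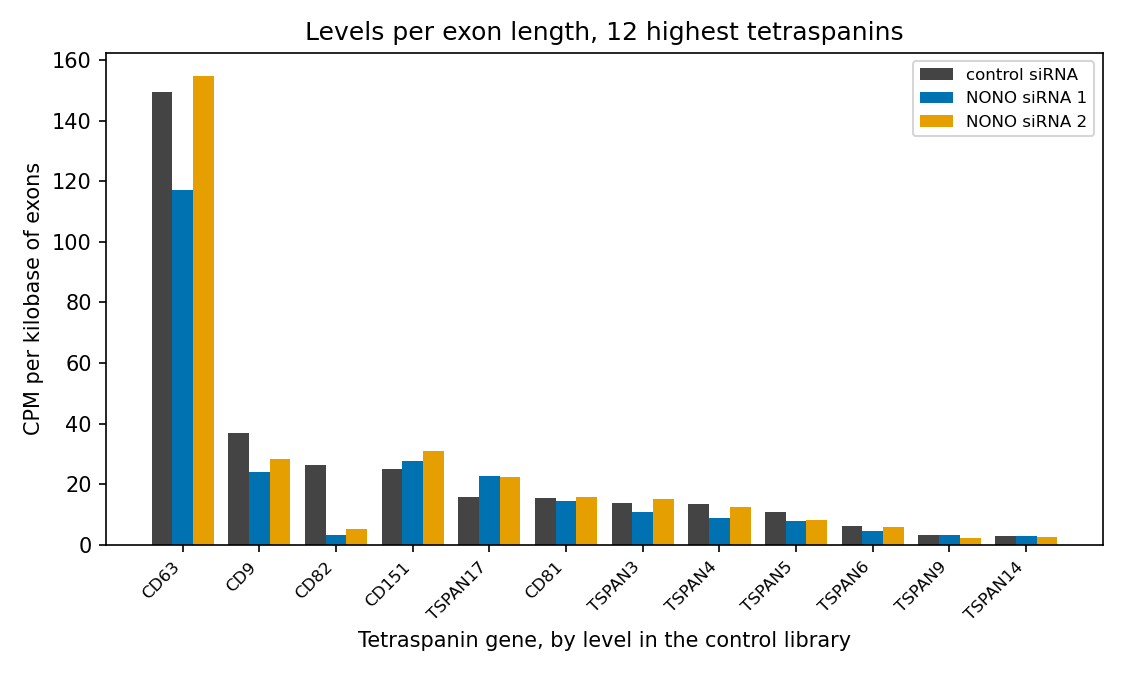
Level in CPM per kilobase of exons of the 12 highest tetraspanins, ordered by the control library, with 1 bar for each library. CD63 stands above all others in the 3 libraries, and CD82 goes from 26.3 to 3.10 and 5.22.

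The widely expressed tetraspanins that are classed with CD82 by their CD names stayed much closer to the control. CD9, which mouse eggs need to fuse with sperm, stood at 153, 100.2 and 119 CPM. Both knockdown values lie below the control beyond counting error, with log2 folds of -0.61 and -0.37, and the limma adjusted p was 0.489. CD63 stood at 394, 308 and 407 CPM, lower with siRNA 1 and within counting error of the control with siRNA 2. CD81, a receptor of hepatitis C virus, stood at 114, 107 and 116 CPM. Both knockdown intervals overlap that of the control, though not each other, and its log2 folds were -0.09 and 0.02. CD151, the partner of laminin-binding integrins, stood at 98.9, 109 and 122 CPM, with log2 folds of 0.14 and 0.30 and an adjusted p of 0.780 in limma. Its exons share 257 bases with POLR2L on the opposite strand, a gene at 57.3, 59.4 and 51.3 CPM.

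The TspanC8 members, which escort the protease ADAM10 out of the endoplasmic reticulum and steer it to its substrates, moved in different directions. TSPAN15 had the lowest mean log2 fold of the family after CD82, from -1.09 and -0.55. It gave 138, 53 and 88 reads, or 4.99 CPM (4.19 to 5.89), 1.80 CPM (1.35 to 2.36) and 3.08 CPM (2.47 to 3.79). Both knockdown intervals lie below that of the control, but the limma adjusted p was 0.388, the smallest of any member other than CD82.

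TSPAN5 stood at 81.1, 57.2 and 60.9 CPM, lower with both siRNAs. TSPAN17 stood at 82.7, 118 and 117 CPM, the reverse pattern, with log2 folds of 0.51 and 0.50. TSPAN14 stood at 54.2, 51.0 and 43.8 CPM. All 3 were beyond counting error of the control with siRNA 2, and TSPAN14 was within it with siRNA 1. The limma adjusted p was 0.540 for TSPAN5, 0.455 for TSPAN17 and 0.832 for TSPAN14.

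TSPAN33 and TSPAN10 differed between the siRNAs. TSPAN33 stood at 4.66, 5.41 and 2.62 CPM, lower than the control with siRNA 2 only, where its intervals are apart. TSPAN10 stood at 0.433, 0.272 and 1.19 CPM, from 12, 8 and 34 reads, so that it passed the filter through the siRNA 2 library alone. The summed CPM of the 6 TspanC8 genes was 228, 234 and 229.

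Tetraspanins with other partners were within a factor of 2 of the control with both siRNAs. TSPAN3 stood at 117, 93.0 and 128 CPM, on both sides of the control. TSPAN4, which builds the migrasomes that moving cells leave behind, stood at 79.0, 51.6 and 72.1 CPM, with log2 folds of -0.60 and -0.13. TSPAN6 stood at 28.5, 20.6 and 26.1 CPM. All 3 were lower with siRNA 1 than with siRNA 2. TSPAN9, a tetraspanin of platelets, stood at 22.4, 22.7 and 16.5 CPM and was lower with siRNA 2 only.

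TSPAN18, which acts with the calcium channel ORAI1 in endothelial cells, stood at 4.77, 2.86 and 3.18 CPM. Its log2 folds were -0.58 and -0.46, with both intervals below the control and a limma adjusted p of 0.560. TSPAN18 is also the nearest tested gene on the far side of CD82, 106102 bases away, and 74 bases of its exons overlap TP53I11 on the opposite strand.

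TSPAN31 stood at 12.1, 14.5 and 12.4 CPM, with intervals that overlap. It shares 1369 exon bases with CDK4 on the opposite strand, a gene at 130, 134 and 106 CPM, and 189 with AGAP2, and whether the counting used strand is not given in the sources used here. TSPAN1 stood at 1.44, 1.39 and 1.99 CPM. TSPAN12, a co-receptor that strengthens Norrin signals through FZD4, stood at 0.831, 1.36 and 0.525 CPM and passed the filter through siRNA 1 alone. Counting intervals of TSPAN1 and TSPAN12 overlap that of the control in both knockdown libraries.

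Of the leukocyte, uroplakin and photoreceptor members, CD37 was the one above 1 CPM. CD37, a leukocyte tetraspanin, stood at 2.46 CPM (1.91 to 3.11), 4.42 CPM (3.69 to 5.25) and 4.41 CPM (3.67 to 5.25). Its log2 folds of 0.65 and 0.65 were the highest mean among the members, with a limma adjusted p of 0.447. CD37 shares 319 exon bases with TEAD2 on the opposite strand, which stood at 20.01, 23.9 and 20.4 CPM. Of 7 leukocyte markers, PTPRC, the pan-leukocyte phosphatase, was listed only with siRNA 2, at 0.105 CPM, and MS4A1 and CD3E have no value in the tables used here. The markers summed to 1.63, 1.09 and 0.769 CPM, of which ITGAM, the one marker tested, made up 1.30, 0.680 and 0.245. ITGAM passed the filter through the control library alone, so its direction was set by the filter. CD79A of B cells stood at 0.108, 0.272 and 0.210 CPM, and LCP1 at 0.217, 0.136 and 0.210 CPM. The control value of CD79A is that of 3 reads, too few to read a direction from. The part of leukocyte RNA in the values of CD37 was not tested.

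The uroplakin tetraspanins were near the floor of detection. UPK1A gave 12, 13 and 9 reads, or 0.433, 0.442 and 0.315 CPM, and UPK1B has no value in the tables used here. The partner UPK2 reached at most 0.181 CPM. Of 10 urothelial and epithelial markers, 6 were tested. KRT20 was listed at 0.0361 CPM or less, KRT5 and EPCAM have no value in the tables used here, and GATA3 lay between 1.12 and 2.04 CPM. The list summed to 199, 102 and 189 CPM, and the 5 mesenchymal markers to 2012, 1406 and 1478 CPM. Of the urothelial and epithelial markers tested, 3 were lower with both siRNAs and 1, PPARG, was higher. KRT18 stood at 111, 49.0 and 93.3 CPM, and KRT8 at 77.1, 43.0 and 85.4 CPM. Of the mesenchymal markers 3 were lower with both siRNAs and 2, CDH2 and ZEB1, were higher. The mesenchymal filament VIM, among the lower, stood at 1380, 947 and 960 CPM. The uroplakin tetraspanins thus give no comparison here.

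The remaining members were below the filter. ROM1, which shapes photoreceptor discs, was just under 1 CPM at 0.614, 0.884 and 0.979 CPM, while TSPAN10 at 1.19 CPM was just above it. CD53, a leukocyte tetraspanin, gave 2, 4 and 1 reads, and TSPAN13 gave 2, 1 and 5 reads. PRPH2, the partner of ROM1, was listed only with siRNA 2, at 0.0350 CPM. TSPAN2, TSPAN7, TSPAN8, TSPAN11, TSPAN16, TSPAN19 and TSPAN32 have no value in the tables used here, as UPK1B.

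Of the 20 tetraspanins tested, 8 were lower and 4 higher with both siRNAs, and 8 differed in sign between the siRNAs, against 34.5%, 37.8% and 27.7% of all genes tested. Their medians on the log2 scale were -0.13 for either siRNA, beside 0.03 and 0.01 over all genes. On the scale of log2(CPM + 1), CD82 was the only member at least 2-fold lower with both siRNAs, where 0.668% of all genes were, and no member was at least 2-fold higher, where 1.24% were. Without CD82 the members' log2 folds ranged from -1.09 to 0.65 with siRNA 1 and from -0.64 to 0.65 with siRNA 2. At an unadjusted limma p under 0.05 there were 2 members, CD82 and TSPAN15, beside 11.4% of all genes. Both NONO siRNAs were set against the same control library, so values shared by them include whatever is particular to that library.

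**Figure D3:**
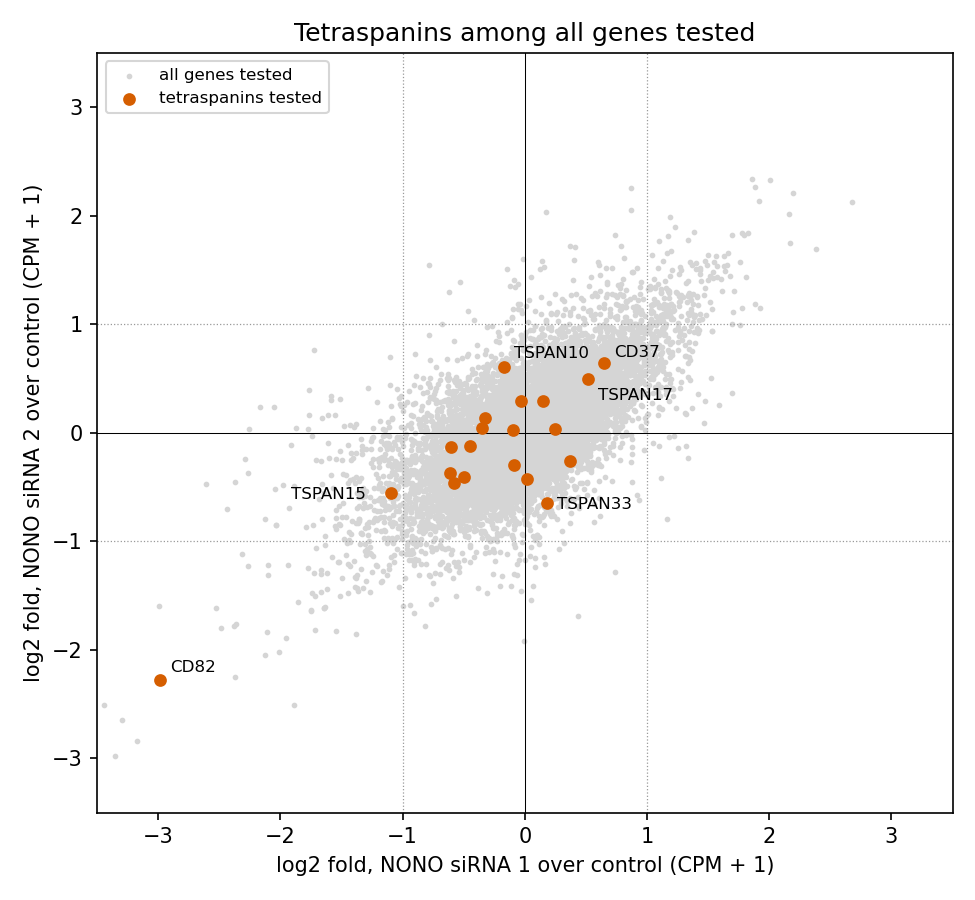
Log2 folds over the control of CPM + 1 with NONO siRNA 1 (x axis) and NONO siRNA 2 (y axis), with the 20 tetraspanins over all genes tested. CD82 lies far out at -2.99 and -2.28, and the other members lie among the bulk of genes. Dotted lines mark a log2 fold of 1 in either direction, and 1 gene lies outside the axes.

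On the scale of log2(CPM + 1), no tetraspanin differed by 2-fold or more between the siRNAs, where 2.05% of all genes did. In CPM itself, which the added 1 damps at low levels, a few members did differ by more than 2-fold between siRNA 1 and siRNA 2. These were TSPAN33 (5.41 and 2.62), TSPAN10 (0.272 and 1.19, from 8 and 34 reads) and TSPAN12 (1.36 and 0.525). TSPAN10 passed the filter through siRNA 2 alone and TSPAN12 through siRNA 1 alone. The direction of the ratio of these genes was thus set by the filter. On the first scale the log2 ratios of siRNA 1 over siRNA 2 ran from -0.78 for TSPAN10 to 0.82 for TSPAN33, and 13 of 20 members were lower with siRNA 1 than with siRNA 2, against 47.3% of all genes. With 1 library for each siRNA these ratios have no test. CD82 was among them, with a ratio of -0.71.

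The seed sites of the siRNAs were read in 1 transcript for each gene beside these ratios. CD82 holds no 7-base site of either strand of any of the 3 siRNAs in its transcript. The site of the siRNA 1 guide, CATTCAT, lies in the 3' UTR of 5 of 20 members, against 15.1% of 11503 genes searched. These are TSPAN3, TSPAN6, TSPAN10, TSPAN14 and TSPAN15. TSPAN15 holds a further site before its 3' UTR. The sites are shown with 7 bases on either side, and capitals mark the site.
TSPAN15 site before the 3' UTR: ctccaagCATTCATgtacatc
TSPAN15 3' UTR site: tttgtaaCATTCATttttttg
TSPAN6 3' UTR site: tctatccCATTCATgttagat
TSPAN3 3' UTR site: atgagccCATTCATggtaagt
TSPAN10 3' UTR site: ggtgtatCATTCATacagtaa
TSPAN14 first 3' UTR site: ctgttctCATTCATttggatg
TSPAN14 further 3' UTR site: gttgttgCATTCATataggag
Of these 5 genes 4 were lower with siRNA 1 than with siRNA 2, TSPAN14 being the exception. Of the 15 members without the site 9 were lower in this way. TSPAN10, among the 4, passed the filter through siRNA 2 alone, so its direction was set by the filter. TSPAN12, without the site, passed through siRNA 1 alone, and its direction was set likewise. Over all genes searched, 66.8% of those with the site were lower with siRNA 1 than with siRNA 2, and 44.1% of those without it. TSPAN14 holds the siRNA 2 guide site AGTTCGA as the only member, against 4.59% of genes. Its 3' UTR of 15147 bases was the longest of the members, and the shares over genes were not adjusted for length. TSPAN14 was lower with siRNA 2 than with siRNA 1, as were 55.9% of all genes with this site and 52.3% of those without it. The sense strand of siRNA 2 has its site in 5 members, against 12.9% of genes: TSPAN9, TSPAN14, TSPAN17, TSPAN18 and TSPAN33. Of these 4 were lower with siRNA 2 than with siRNA 1. Of the 15 members without this site 3 were lower in this way, TSPAN12 among them. Over all genes the shares with and without this site hardly differed, at 53.1% and 52.4%. The control guide's site lies in 3 members, TSPAN3, TSPAN9 and TSPAN14, against 2.96% of genes. The sense sites of siRNA 1 and of the control siRNA each lie in the 3' UTR of 1 member, TSPAN10 and TSPAN17. They were found in 1.49% and 1.99% of genes. The part of these sites in the members' values was not tested.

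Of the listed proteins that tetraspanins gather, none passed the limma test over all genes, which called 0.079% of all genes lower and 0.136% higher. With calls this rare, their absence says little about these lists. Of 10 adhesion partners 5 were tested, of which 4 were lower with both siRNAs and 1 higher, with median log2 folds of -0.94 and -0.49. IGSF8, the immunoglobulin-family partner of CD9, CD81 and CD82, stood at 16.2, 7.96 and 4.72 CPM, with log2 folds of -0.94 and -1.59 (limma adjusted p = 0.186). IGSF3 stood at 36.5, 16.8 and 23.2 CPM. The hyaluronan receptor CD44 stood at 1218, 775 and 952 CPM, and CLDN1 of tight junctions at 19.7, 8.57 and 13.7 CPM. These 4 were lower than the control in both knockdown libraries.

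Integrin subunits were split. Of 8 listed 6 were tested, 3 lower and 2 higher with both siRNAs, with medians of -0.67 and -0.09. ITGA3, the laminin receptor subunit that binds CD151, stood at 1358, 895 and 1080 CPM, and ITGA5 of the fibronectin receptor at 391, 220 and 246 CPM. ITGA2 stood at 64.1, 19.5 and 53.4 CPM, low with siRNA 1 and near the control with siRNA 2. ITGB1, the common beta subunit, was higher in both, at 2127, 2982 and 2823 CPM. The smallest limma adjusted p of the list was 0.220, for ITGA5.

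ADAM10, the protease that TspanC8 members escort, stood at 220, 150 and 275 CPM, on both sides of the control. It was named after its values were seen. Of the 9 proteases and substrates 8 were tested, 5 lower and 2 higher with both siRNAs, with medians of -0.52 and -0.31. CXCL16, a chemokine that ADAM10 sheds, had the lowest fold, at 8.20, 1.73 and 1.96 CPM, with log2 folds of -1.75 and -1.64 (limma adjusted p = 0.0643). MMP14 had log2 folds of -0.93 and -0.89, and the Notch receptors NOTCH1 and NOTCH2 between -0.48 and -0.37.

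Receptors and ligands tuned by tetraspanins gave 5 of 9 tested genes lower and 3 higher with both siRNAs, with medians of -0.15 and -0.13. HBEGF, the growth factor whose precursor binds CD9, stood at 83.8, 35.0 and 58.5 CPM. TIMP1, a protease inhibitor that binds CD63, stood at 108, 59.7 and 79.7 CPM. FZD4 stood at 10.2, 7.96 and 5.84 CPM and TGFA at 1.26, 2.07 and 3.39 CPM. HBEGF, TIMP1 and FZD4 were thus below the control with both siRNAs and TGFA above it.

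The endosomal sorting genes that act with CD63, CD9 and CD81 in exosomes lay on both sides of the control. All 12 were tested, of which 5 were higher and 2 lower with both siRNAs, with medians of -0.02 and 0.16. VPS4A, the ATPase that recycles the sorting machinery, had log2 folds of 0.69 and 0.29, and the raft protein FLOT1 0.43 and 0.59. LAMP1, a lysosomal membrane protein, had 0.26 and 0.09. RAB27A, a GTPase of exosome release, stood at 18.6, 8.06 and 17.2 CPM, lower with both siRNAs but near the control with siRNA 2. SDCBP, the other gene lower with both, had log2 folds of -0.45 and -0.0018.

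Genes described elsewhere as acting on CD82 were divided. Of 12 tested 4 were higher and 4 lower with both siRNAs, with medians of 0.17 and -0.07. JUNB, an AP-1 factor described as an activator of the CD82 gene, stood at 48.8, 16.1 and 13.0 CPM, with log2 folds of -1.54 and -1.83 (limma adjusted p = 0.0577). NFKB1 stood at 76.1, 64.0 and 59.2 CPM, and the chromatin ATPase RUVBL1 at 115, 175 and 127 CPM. JUNB and NFKB1 were thus lower and RUVBL1 higher with both siRNAs, and none of these 3 passed the test.

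**Figure D4:**
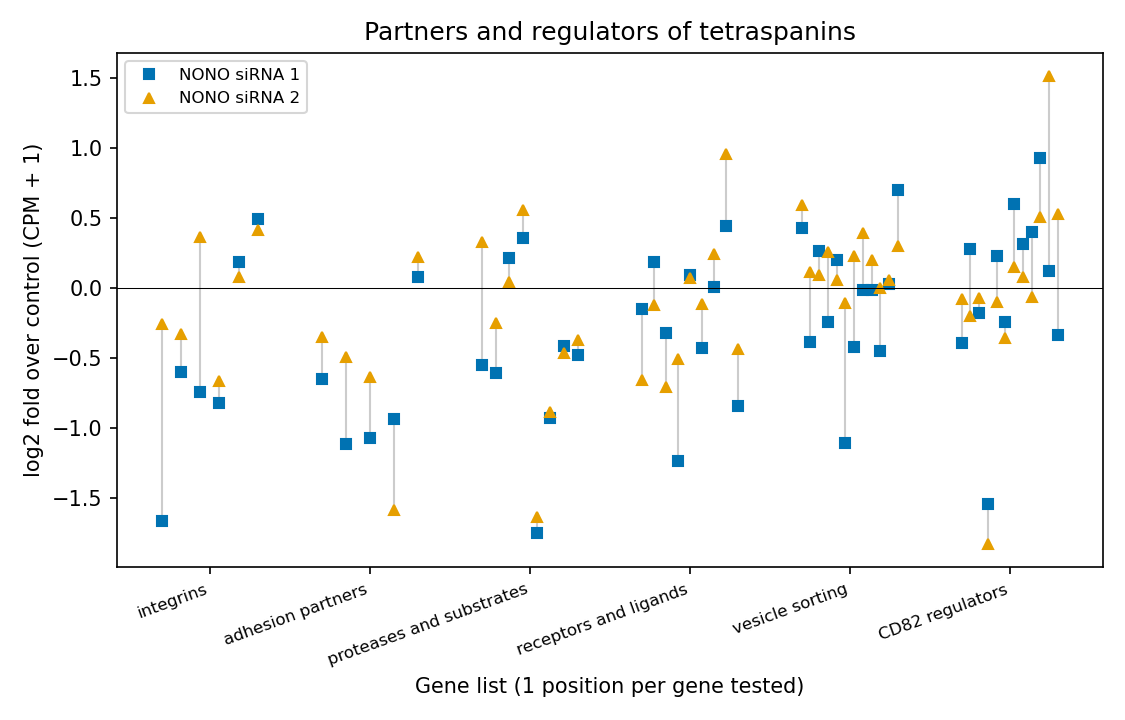
Log2 folds over the control of CPM + 1 for genes of 6 lists of tetraspanin partners and CD82 regulators, with 1 position for each gene tested, squares for NONO siRNA 1 and triangles for NONO siRNA 2. Adhesion partners lie mostly below 0 and sorting genes around 0, and JUNB is the lowest of the regulators at -1.54 and -1.83.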

How the data were processed

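Each library has 1 deposited table, whose values are normalized per the file headers. The values show these deposited columns to be CPM with no length scaling: 99.3%, 99.3% and 99.5% are whole read numbers, within 0.01 reads, once divided by the smallest step. Values at 0.5 of a read were counted as 0. Library totals recovered in this way were 27681990, 29408573 and 28594569 reads. Per the submitters' processing notes, reads went through HISAT2 2.1.0 and HTSeq 0.6.1, with hg19 and GRCh37 as builds. Coordinates and exon lengths here come from GENCODE 29 or RefSeq on GRCh38. limma 3.58.1 with a trend (R 4.3.3) was fitted to log2(CPM + 1) of 13922 genes that reached 1 CPM anywhere, with 1 residual and 7.68 prior degrees of freedom, Benjamini-Hochberg adjustment over all genes and calls at 0.05. Folds near 1 CPM are understated by the pseudocount. edgeR 4.0.16 and DESeq2 1.42.0 used the recovered reads. limma and edgeR were run on simulated data with the same dispersion for all genes and the same folds in both knockdown libraries. Differences between the siRNAs were not simulated, so these runs cannot show how the calls fare with them. Seed sites were searched in 1 transcript a gene, whose 3' UTR had to reach 50 bases. Members and lists were chosen with earlier results of these data known. The text names every member, NONO, up to 4 genes of each list by the smaller of both folds where these have 1 sign, genes next to called members and overlapping genes, except for items that are not reported here.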

Additional observations from a re-analysis of the deposited data

How the results depend on the processing

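CD82 kept its direction under all 10 alternatives, with a log2 fold between -2.70 and -2.64 where both siRNAs were used. Its limma call was lost at -2.64 with no filter, with a mean of at least 5 CPM and without a trend, and at -2.67 with TMM scaling, so that 0 members were called under these 4, with 1 to 3 members at an unadjusted p under 0.05. Leaving out 1 siRNA library gave -2.99 to -2.28, and 1 to 2 members at least 2-fold from the control, TSPAN15 being the second without siRNA 2. These leave no residual degree of freedom and thus no test. Over all genes, where 19 were called higher and 11 lower, no filter gave 0 and 0, a mean of at least 5 CPM 2 and 3, TMM scaling 2 and 3, no trend 0 and 3, upper-quartile scaling 161 and 80, edgeR 86 and 70 and DESeq2 146 and 61. With no filter, where limma called 0 genes, 1882 had an unadjusted p under 0.05. The cause was not tested. The members' median of the mean log2 fold, -0.17, was -0.19 with a mean of at least 5 CPM, -0.19 with upper-quartile scaling, -0.21 with TMM scaling, -0.19 in edgeR and -0.19 in DESeq2, and -0.13 to -0.13 without 1 siRNA. CD82's rank per length in the control library was 4 with the longest transcript. With 1 siRNA left out, 8 other members changed sign: TSPAN10 (-0.17 to 0.61), TSPAN33 (-0.64 to 0.18), CD63 (-0.35 to 0.048), CD81 (-0.095 to 0.023), TSPAN1 (-0.030 to 0.29), TSPAN3 (-0.32 to 0.14), TSPAN9 (-0.42 to 0.021) and TSPAN12 (-0.26 to 0.37). No paired analysis was possible because the control group has 1 library. Below about 3 reads, or 0.108 CPM in the control library, no fold can be read.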

Other observations

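The genes around CD82 were closer to the control than CD82 itself. EXT2, a heparan sulfate polymerase gene 318998 bases before it, gave 100.8 CPM after the control siRNA and 90.2 and 79.5 CPM after siRNA 1 and 2. ACCS, beyond it, stood at 5.78, 9.52 and 5.81 CPM, and SEC14L1P1, the next tested gene, at 1.19, 1.46 and 1.01 CPM. On the other side, beyond TSPAN18, TP53I11 stood at 34.0, 16.2 and 24.7 CPM, with log2 folds of -1.02 and -0.44 and a limma adjusted p of 0.423. PRDM11, the next tested gene, had log2 folds of -0.69 and -0.13. The 3 tested genes that follow CD82 all lay below the control with both siRNAs, as did 34.5% of all genes tested. Their limma adjusted p-values were 0.560, 0.423 and 0.702. Of these genes, TSPAN18 and TP53I11 share 74 exon bases on opposite strands, so their values may not be separate.

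The L6 family, whose proteins cross the membrane like tetraspanins but belong to another family, held 2 tested genes of 6. TM4SF1 stood at 463, 649 and 576 CPM, higher with both siRNAs. TM4SF19 stood at 15.1, 9.90 and 8.18 CPM, lower with both. Neither passed limma's test (adjusted p of 0.510 and 0.412).

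TSPAN4 and CD151 lie 2977 bases apart on chromosome 11, and their log2 folds were of opposite sign with both siRNAs. CD63-AS1, which shares 237 exon bases with CD63 on the opposite strand, stood at 1.95, 5.44 and 3.95 CPM, higher than the control with both siRNAs.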
